A study of Mus musculus with 28 samples.

Results

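The glutathione transferases described here are 10 genes of mouse liver, Gsta2, Gsta3, Gsta4, Gstm1, Gstm2, Gstm3, Gstp1, Gstt1, Mgst1 and Mgst3, out of 8251 genes that the array annotation names singly. They were taken with every probe set the annotation gives them, which came to 14 of 12422 probe sets. Total RNA from liver was labelled with biotin and hybridized to 28 Affymetrix arrays. Wild-type mice (WT) and mice null for Aag, the DNA glycosylase that removes alkylated bases and is encoded by Mpg, were untreated or sampled at set times after MMS (methyl methanesulfonate), which methylates DNA. WT liver gave 3 untreated arrays, then 2, 3, 2 and 2 arrays 6 h, 12 h, 24 h and 48 h after treatment. Aag null liver, called Aag below, gave 4 untreated arrays, then 3, 2, 4 and 3. The sources used here do not give the MMS dose, the strain, sex and age of the mice or the design of the null allele. Nothing in the labels says that replicates were separate animals, so p-values measure the spread between these samples.

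Glutathione transferases join the tripeptide glutathione to electrophiles, which marks them for export from the cell. The alpha (Gsta), mu (Gstm), pi (Gstp) and theta (Gstt) classes are soluble enzymes of the cytosol, and liver is among the tissues richest in them. Mgst1 and Mgst3 belong to a separate family of membrane proteins, which carry transferase and glutathione peroxidase activities. Many transferase genes are induced through the transcription factor NRF2, which binds antioxidant response elements, or through the nuclear receptors CAR and PXR.

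Values are log2 signals after quantile normalization. A probe set was called where the limma p-value, adjusted by Benjamini-Hochberg over all 7261 probe sets tested, was under 0.05. Of the 14 member probe sets 13 entered the test. The other, 99576_at for Mgst3, was dim, at 1.53 to 2.84 over all arrays. In the annotation no probe set listed a member together with another gene. The names of 2 member probe sets, 93543_f_at for Gstm1 and 97681_f_at for Gstm3, carry the manufacturer's mark for probes shared by a family of related sequences. Transcripts of Gstm paralogues cannot be told apart in them. The _r_at ending of 161633_r_at for Gstm1, 161357_r_at for Gstm2 and 97682_r_at for Gstm3 marks probes chosen under relaxed rules.

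Several facts of the arrays bear on the comparisons. The mean of 9 hybridization control probe sets placed 5 arrays, all 3 of WT untreated and replicates 3 and 4 of Aag untreated, at 10.25 to 11.65, and the other 23 at 6.42 to 9.22. The 5 arrays also had a larger signal difference between 3′ and 5′ Gapdh probe sets, 0.63 to 0.92 against -0.37 to 0.21. WT treatment and this split therefore cannot be told apart, and no WT response has a value within 1 set of arrays. The untreated groups also differ in it, so untreated Aag against WT mixes genotype with the control set in part. A fit that adds a term for the control set rests on the Aag untreated arrays, the only group with arrays of both kinds. Transcripts typical of female liver were high in 3 arrays, replicate 3 of Aag untreated and replicates 1 and 2 of Aag 24 h, where Cyp2b9 lay at 7.73 to 8.22 against 2.49 to 4.21 in the other 25. Replicate 3 of Aag untreated also belongs to the high control set, so the term for that set mixes both traits in part. Hepatocyte markers, 6 of 9 on the array, had array means of 10.59 to 10.72 in WT untreated and 10.31 to 10.47 in WT 48 h liver, and of 10.59 to 10.79 in Aag untreated and 10.37 to 10.46 in Aag 48 h liver. Of these 6 markers, 2 were lower at 24 h and 2 at 48 h in WT and 1 at each of these times in Aag. Of 6 stellate cell markers 3 were lower at each of 12 h, 24 h and 48 h in WT, 1 was higher at 12 h and at 48 h, and in Aag 1 was lower, at 24 h. Over all probe sets 22.3%, 15.4% and 16.6% were called in WT at 12 h, 24 h and 48 h. The share in Aag was 1.29% at 24 h and 0.826% at 48 h. The bile duct markers, 4 of 6 on the array, were dim, with medians of 3.07 for Krt7, 3.06 for Krt19, 1.88 for Epcam and 4.21 for Cftr. Red cell markers, 2 of 4 on the array, had array means of 7.84 to 8.79 in WT untreated and 6.97 to 7.63 in WT treated arrays. In Aag these means were 6.81 to 7.93 untreated and lay within 6.68 to 7.77 after treatment. Of these 2 markers 1 was lower at each WT time, beside 15.4% to 22.3% of all probe sets called. In Aag 0 were called, beside 0.303% to 1.29% of all. The part of these cell type markers in the responses of the members was not tested. In bulk liver, fewer cells of a type and less RNA per cell cannot be told apart. Mpg itself was dim, with 2.73 ± 0.16 (SD, n = 3) in WT untreated and 2.35 ± 0.04 (SD, n = 4) in Aag untreated liver, and the sources used here do not say where its probes lie relative to the deleted part, so it does not check the genotype labels.

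Sequence upstream of the start site was available from RefSeq (GRCm38.p6) for 9 of the 10 members, as 11 windows of 250 bases. The windows of Gsta2, Gstm1 and Gstm3 are printed here as examples of members whose group means ran closely together, as those of other members also did. That of Gsta3 is printed for comparison. Each runs 5′ to 3′ on the strand of its gene, and capitals mark matches on either strand to the searched motifs. These were the antioxidant response element core TGACNNNGC, the TATA box TATAAA, the CCAAT box CCAAT and a C/EBP motif, TTGCNNCAA. The printed matches do not overlap each other. The windows are chr9:78347146-78347395 (minus strand) for Gsta2, chr1:21240335-21240584 (plus strand) for Gsta3, chr3:108017819-108018068 (minus strand) for 1 of the 2 start sites of Gstm1 and chr3:107969175-107969424 (minus strand) for Gstm3.
Gsta2: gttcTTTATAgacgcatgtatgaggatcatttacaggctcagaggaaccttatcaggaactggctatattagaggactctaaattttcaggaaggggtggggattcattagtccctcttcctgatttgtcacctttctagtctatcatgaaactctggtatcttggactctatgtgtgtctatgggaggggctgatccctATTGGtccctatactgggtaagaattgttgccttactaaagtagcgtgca
Gsta3: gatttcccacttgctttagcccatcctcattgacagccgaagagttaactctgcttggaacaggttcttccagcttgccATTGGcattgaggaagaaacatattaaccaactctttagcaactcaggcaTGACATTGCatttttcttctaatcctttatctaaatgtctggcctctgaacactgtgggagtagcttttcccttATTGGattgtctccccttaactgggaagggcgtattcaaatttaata
Gstm1: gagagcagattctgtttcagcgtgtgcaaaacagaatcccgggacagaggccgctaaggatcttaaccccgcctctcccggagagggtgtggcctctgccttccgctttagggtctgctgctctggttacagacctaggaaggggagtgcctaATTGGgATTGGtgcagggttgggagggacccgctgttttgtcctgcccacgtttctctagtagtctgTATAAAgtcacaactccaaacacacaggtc
Gstm3: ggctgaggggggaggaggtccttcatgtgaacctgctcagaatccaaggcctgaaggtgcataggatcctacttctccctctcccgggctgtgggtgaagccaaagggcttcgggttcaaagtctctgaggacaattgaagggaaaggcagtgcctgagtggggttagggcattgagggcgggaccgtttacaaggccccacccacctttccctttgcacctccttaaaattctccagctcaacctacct

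The Gstm1 and Gstm3 windows had 154 identical bases among 227 aligned pairs, or 61.6% of the 250-base window, the highest share among 53 pairs of windows from different members. The median over those pairs was 51.2% of the window, and Gsta2 and Gsta3 shared 58.8% of it. The antioxidant response element core occurred once in Gsta3, at position -121 from the start site, and once in a window of Mgst1, at -56 on the minus strand. It occurred in 10.2% of 32851 promoter windows of the same length, so its presence in windows of 2 genes is a description of these letters only. Gsta2 held a CCAAT box match at -50 and a TATA box match at -246, both on the minus strand. Gstm1 held TATAAA at -30, where such a box usually lies, and the Gstm3 window held no match to any of the motifs. Over all windows 12.4% held the TATA box letters and 33.8% the CCAAT letters. A C/EBP match was found in Gstt1, at -58 on the minus strand, and in 1.74% of all windows.

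Gsta2, an alpha-class enzyme that also reduces lipid hydroperoxides, rose late after MMS in both genotypes. In WT liver its log2 signal was 6.69, 6.54 and 6.53 untreated, 6.67 and 6.46 at 6 h, and 6.86, 6.62 and 6.72 at 12 h. It was 7.48 and 6.92 at 24 h and 8.00 and 7.67 at 48 h. Both WT arrays at 24 h and both at 48 h lay above every earlier WT array. In Aag liver the signal was 6.66, 6.33, 6.68 and 6.97 untreated, 6.92, 6.72 and 6.77 at 6 h, and 6.87 and 6.82 at 12 h. It then stood at 7.10, 7.79, 7.09 and 7.39 at 24 h and at 7.31, 7.50 and 7.50 at 48 h. No late Aag array overlapped an earlier one.

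**Figure D1:**
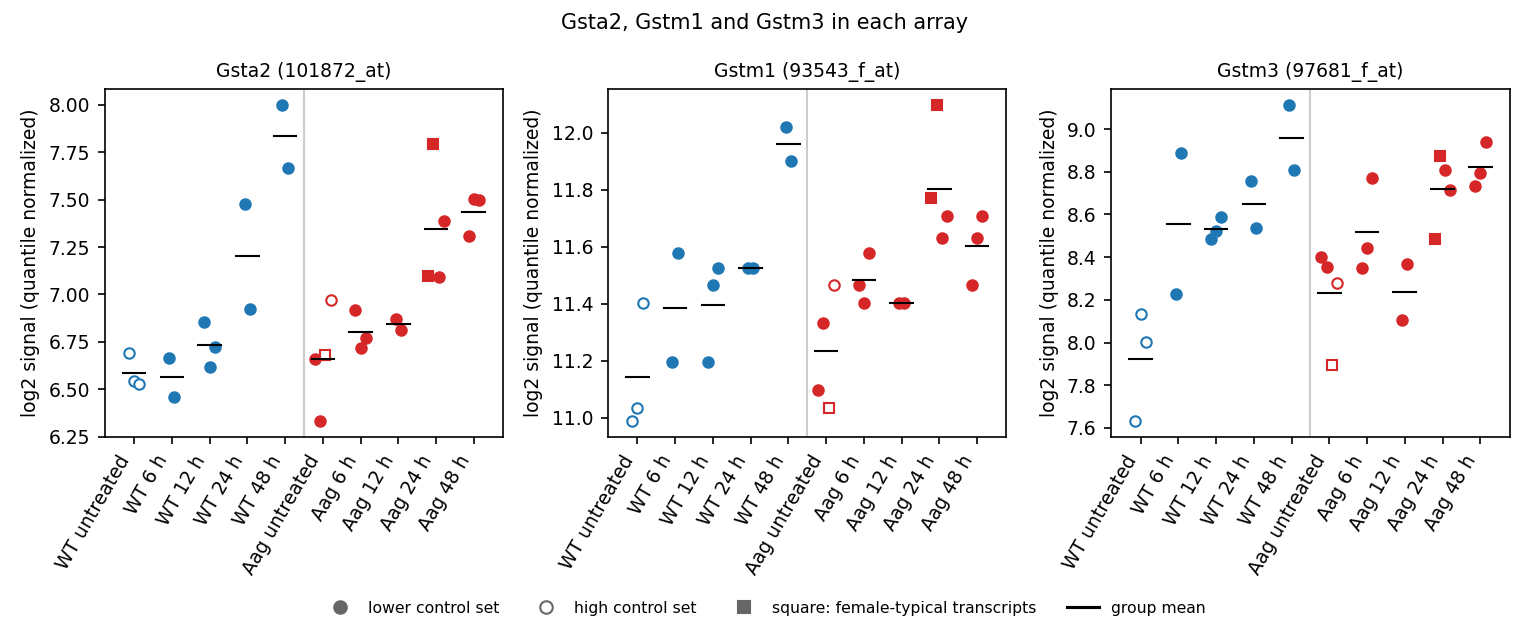
Log2 signal (vertical axis, quantile normalized) of Gsta2, Gstm1 and Gstm3 probe sets in each of 28 arrays, by group on the horizontal axis; points are arrays, bars group means, open symbols the 5 arrays with high hybridization controls and squares the 3 arrays with female-typical transcripts. Gsta2 reached 8.00 and 7.67 in WT liver at 48 h, and the untreated WT arrays, all open, lay at 6.53 to 6.69.

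Against untreated liver of the same genotype, Gsta2 did not pass the test at 6 h or 12 h. Its log2 change was -0.02 and 0.14 in WT and 0.14 and 0.18 in Aag, with SE of 0.17 to 0.20. At 24 h it rose by 0.61 in WT (SE 0.20, limma adjusted p = 0.0394) and by 0.68 in Aag (SE 0.15, adjusted p = 0.0301). These calls were weak: the WT one held only without WT 24 h replicate 2 among 5 arrays left out in turn (0.34 to 0.89, adjusted p up to 0.457), and the Aag one was lost without untreated replicates 2 or 3 or 24 h replicates 2 or 4 (adjusted p up to 0.133). At 48 h the rise was 1.25 in WT, or 2.37-fold (SE 0.20, adjusted p = 0.000305), and 0.77 in Aag, or 1.71-fold (SE 0.17, adjusted p = 0.0347). The WT call at 48 h held without each of its 5 arrays in turn, over changes of 1.08 to 1.41, and with a term for the control set, at 1.58 (adjusted p = 0.0026). In Aag at 48 h the change within the lower control set was 0.94 (adjusted p = 0.0729), and among 7 arrays left out in turn the call held only without untreated replicates 1 or 4, over changes of 0.66 to 0.88.

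Comparing late with early treated liver leaves out the untreated arrays. Gsta2 was 1.27 higher at 48 h than at 6 h in WT, or 2.41-fold (SE 0.22, adjusted p = 0.00442), and 0.63 higher in Aag (SE 0.18), which did not pass (adjusted p = 0.159). The WT call was lost without WT 48 h replicate 1 (1.10, adjusted p = 0.104). Comparisons averaged over both genotypes were added after the values were seen. In them Gsta2 stood 0.59 above its 6 h level at 24 h (SE 0.14, limma adjusted p = 0.0265). At 48 h it stood 0.95 above its 6 h level (SE 0.14, adjusted p = 0.000546). All treated arrays lie in the lower control set. The 48 h value kept its call under each setting and without each of 10 arrays in turn (0.87 to 1.03), whereas the 24 h call for Gsta2 was lost without the 3 arrays with female-typical transcripts (0.54, adjusted p = 0.0846), without WT 24 h replicate 1 (0.45, adjusted p = 0.25) and without Aag 6 h replicate 3 (0.58, adjusted p = 0.0552).

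**Figure D2:**
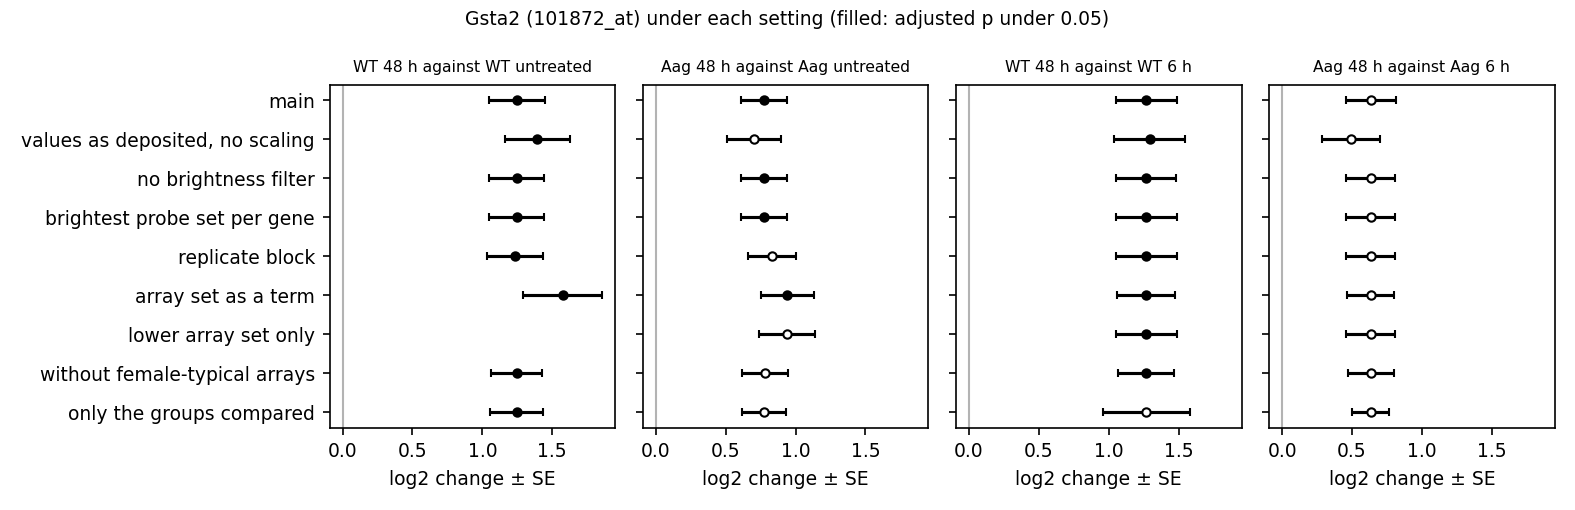
Log2 change of Gsta2 (horizontal axis, with SE as bars) in 4 comparisons under each way of processing (vertical axis); filled points had an adjusted p under 0.05. WT changes at 48 h stayed above 1 throughout, and the Aag change from 6 h to 48 h, 0.63 in the main setting, was open in each.

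Gsta3, another alpha-class enzyme abundant in mouse liver, and Gsta4, which acts on the lipid peroxidation product 4-hydroxynonenal, were called in no comparison. Group means of Gsta3 ran from 6.68 in WT 6 h to 7.40 in WT 48 h, and those of Gsta4 from 4.51 in WT 12 h to 5.37 in WT 48 h. At 48 h in WT the log2 change was 0.29 for Gsta3 (SE 0.27, adjusted p = 0.511) and 0.52 for Gsta4 (SE 0.21, adjusted p = 0.0984). In Aag at 48 h these were 0.22 and 0.17. The 2 WT arrays at 6 h read 7.13 and 6.22 for Gsta3, and the Aag arrays at 6 h spread from 6.54 to 7.82.

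Gstm1, the major mu-class enzyme of liver, was among the brightest transcripts on the array in its family-marked probe set 93543_f_at. In WT liver the signal was 10.99, 11.04 and 11.40 untreated, 11.19 and 11.58 at 6 h, and 11.19, 11.47 and 11.53 at 12 h. It was 11.53 and 11.53 at 24 h and 12.02 and 11.90 at 48 h. Only the 48 h arrays lay above all untreated and earlier treated WT arrays. In Aag liver it was 11.10, 11.33, 11.04 and 11.47 untreated, 11.47, 11.40 and 11.58 at 6 h, and 11.40 and 11.40 at 12 h. Later Aag arrays stood at 11.77, 12.10, 11.63 and 11.71 at 24 h and 11.47, 11.63 and 11.71 at 48 h. Equal values arise because quantile normalization gives arrays the same value at the same rank, and few ranks lie above this probe set.

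The rise of Gstm1 at 48 h in WT was 0.82 (SE 0.15, adjusted p = 0.00104). It held without each of the 5 arrays (0.74 to 0.95) and with a term for the control set (0.85, adjusted p = 0.0452). In Aag it rose at 24 h by 0.57 (SE 0.12, adjusted p = 0.023), and at 48 h the change of 0.37 did not pass (SE 0.13, adjusted p = 0.15). The Aag call at 24 h was lost without the 3 arrays with female-typical transcripts, where the change was 0.37 (adjusted p = 0.754), and without any 1 of them (adjusted p up to 0.0925). A second Gstm1 probe set, 161633_r_at, was called in none of the comparisons and changed by 0.21 in WT (SE 0.21) and 0.38 in Aag (SE 0.17) at 48 h.

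Gstm3, a mu-class paralogue of Gstm1, was higher at all 4 times in WT in its family-marked probe set 97681_f_at. The WT signal was 7.63, 8.13 and 8.00 untreated, 8.23 and 8.89 at 6 h, and 8.48, 8.52 and 8.59 at 12 h. It was 8.76 and 8.54 at 24 h and 9.11 and 8.81 at 48 h, so no treated WT array overlapped the untreated ones. In Aag liver the signal was 8.40, 8.36, 7.89 and 8.28 untreated, 8.35, 8.44 and 8.77 at 6 h, and 8.11 and 8.37 at 12 h. At 24 h it was 8.48, 8.87, 8.81 and 8.72, and at 48 h 8.73, 8.80 and 8.94. Late Aag arrays lay above all untreated ones, and early ones overlapped them.

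In WT the log2 rise of Gstm3 was 0.63 at 6 h (SE 0.20, adjusted p = 0.0279), 0.61 at 12 h (SE 0.18, adjusted p = 0.0159), 0.73 at 24 h (SE 0.20, adjusted p = 0.0144) and 1.04 at 48 h (SE 0.20, adjusted p = 0.00104). With a term for the control set all 4 calls were lost, with changes of 0.34, 0.32, 0.43 and 0.75 (adjusted p = 0.602, 0.634, 0.442 and 0.147). Without WT untreated replicate 1, the lowest array, the calls at 6 h, 12 h and 24 h were lost (adjusted p = 0.118, 0.098 and 0.07), while the call at 48 h held without each array in turn. The 6 h call was also lost without WT 6 h replicate 2, the 12 h call without WT 12 h replicate 3 and the 24 h call without either WT 24 h array (adjusted p of 0.0547 to 0.311). In Aag the changes were 0.29, 0.00, 0.49 and 0.59 at the same times, and none passed (adjusted p = 0.0809 at 48 h). The other Gstm3 probe set, 97682_r_at, was called in no comparison and changed by 0.20 in WT (SE 0.24) and 0.38 in Aag (SE 0.20) at 48 h.

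Gstm2, the third mu-class member, gave opposite signs in its probe sets. In WT liver 93009_at read 6.27, 6.06 and 6.19 untreated, 5.79 and 5.57 at 6 h, and 5.62, 5.51 and 5.66 at 12 h. It read 6.10 and 5.96 at 24 h and 6.04 and 6.24 at 48 h, which is within or near the untreated range. Aag arrays read 5.84, 5.90, 6.67 and 6.08 untreated, 5.96, 5.78 and 5.84 at 6 h, and 5.59 and 5.59 at 12 h. The late Aag arrays read 5.89, 5.74, 6.75 and 5.95 at 24 h and 5.95, 5.96 and 6.19 at 48 h. The lowest group mean in each genotype was that of 12 h.

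Only the WT fall at 12 h passed for 93009_at, by 0.58 (SE 0.20, adjusted p = 0.0421), and the Aag change at that time was -0.53 (SE 0.21, adjusted p = 0.321). The WT call was lost without each of the 6 arrays in turn (adjusted p up to 0.121), as deposited (-0.48, adjusted p = 0.115) and with a term for the control set (-0.07, adjusted p = 0.942). In the same comparison 161357_r_at of Gstm2 changed by 0.66 (SE 0.26, adjusted p = 0.0726). Over the 10 group means 161357_r_at and the 161633_r_at probe set of Gstm1 had a Pearson r of 0.948, and after group means were removed r was 0.791 over the 28 arrays, which share those arrays and their scaling.

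Gstt1, a theta-class enzyme that acts on small halogenated compounds, was lower early in WT liver. Its signal there was 7.60, 7.44 and 7.70 untreated, 7.02 and 6.35 at 6 h, and 7.12, 6.85 and 7.00 at 12 h. It was 7.68 and 7.13 at 24 h and 7.48 and 7.74 at 48 h, so the 6 h and 12 h arrays lay below the untreated arrays and the 48 h arrays did not. Aag arrays read 6.88, 7.08, 8.18 and 7.77 untreated, 7.25, 7.08 and 7.39 at 6 h, and 7.03 and 7.05 at 12 h. They read 8.12, 8.09, 7.45 and 7.59 at 24 h and 7.34, 7.29 and 7.78 at 48 h. The 3 arrays with female-typical transcripts held the 3 highest values, 8.09 to 8.18, against 6.35 to 7.78 in the other 25.

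The WT fall of Gstt1 at 6 h was 0.89 (SE 0.29, adjusted p = 0.037). With a term for the control set it turned to 0.10 (adjusted p = 0.921), and the call was lost without WT 6 h replicate 2 (-0.56, adjusted p = 0.241) and without WT untreated replicates 1 or 3 (adjusted p = 0.0774 and 0.081). At 12 h the change of -0.59 did not pass (SE 0.26, adjusted p = 0.111), nor did any Aag change. Within the Aag untreated group the 2 arrays of the lower control set read 6.88 and 7.08 and those of the high set 8.18 and 7.77. The array at 8.18 also has female-typical transcripts, so the term for the control set mixes the 2 traits in part.

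Gstp1, the pi-class enzyme, had near-uniform high signal with 3 exceptions. It lay between 10.99 and 11.77 in 25 arrays and at 9.11, 8.94 and 9.20 in replicate 3 of Aag untreated and replicates 1 and 2 of Aag 24 h. These are the 3 arrays in which Cyp2b9 was high, and their ranges did not overlap those of the rest. In mouse liver Gstp1 is known as a transcript higher in males. Its spread within groups, an SD of 0.762, was larger than that of 99.6% of tested probe sets. No comparison called it. Without the 3 arrays the Gstp1 responses lay between -0.25 and 0.40, with SE of 0.14 to 0.15, and again none passed.

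**Figure D3:**
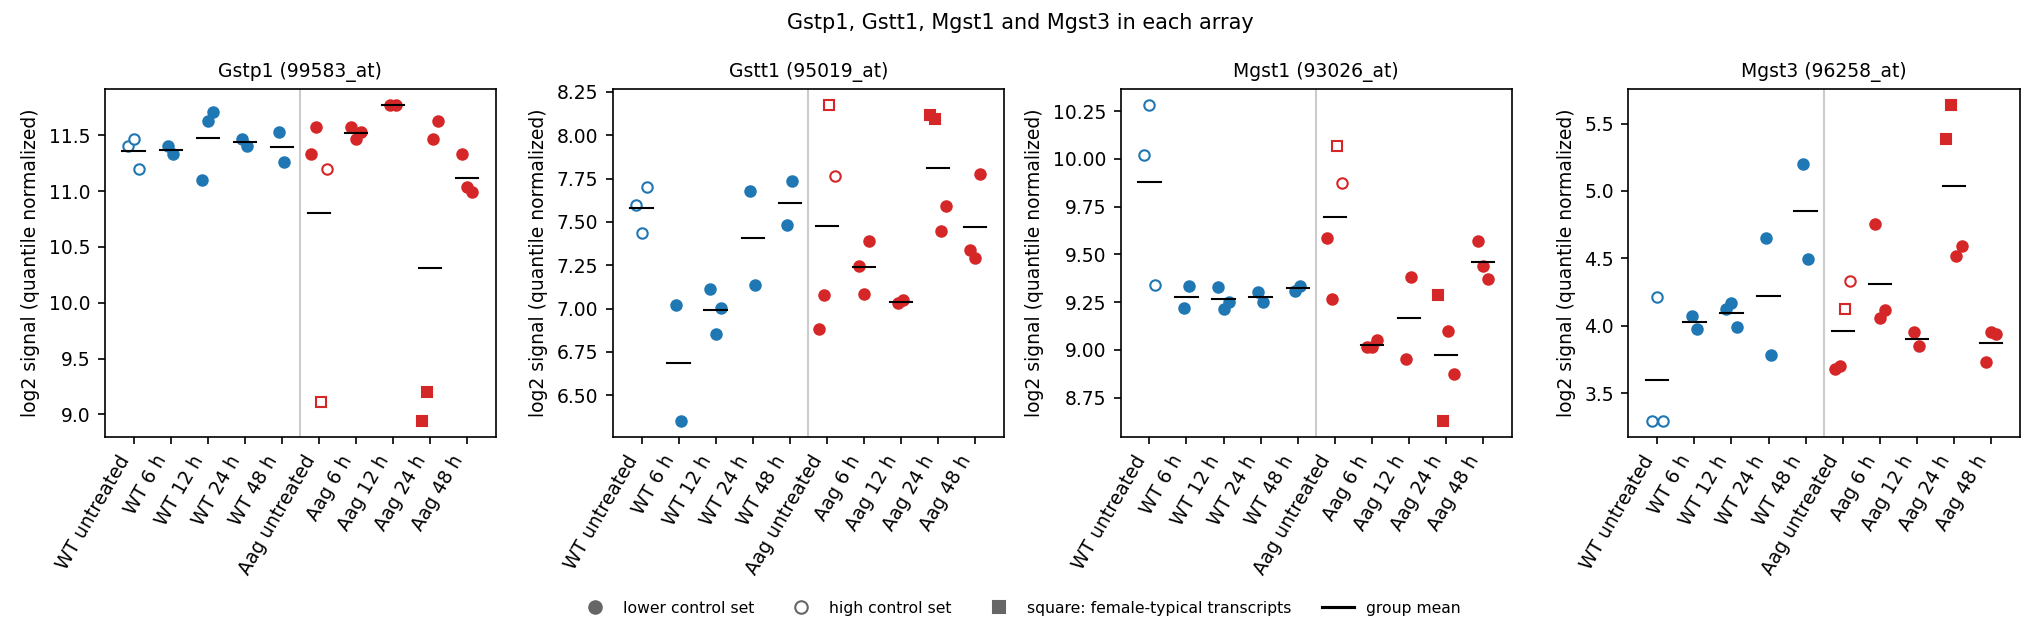
Log2 signal (vertical axis, quantile normalized) of Gstp1, Gstt1, Mgst1 and Mgst3 in each of 28 arrays, by group on the horizontal axis; points are arrays, bars group means, open symbols the 5 arrays with high hybridization controls and squares the 3 arrays with female-typical transcripts. Squares lie at 8.94 to 9.20 for Gstp1, below all circles, and at 8.09 to 8.18 for Gstt1, above them.

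Mgst1, the abundant microsomal enzyme of liver, was lower after MMS in some comparisons. WT arrays read 10.02, 10.28 and 9.34 untreated, 9.22 and 9.33 at 6 h, and 9.33, 9.21 and 9.25 at 12 h. At 24 h they read 9.30 and 9.25, and at 48 h 9.31 and 9.33. WT treated arrays thus spanned 9.21 to 9.33, and WT untreated replicate 3 stood just above them. Aag arrays read 9.59, 9.26, 10.07 and 9.88 untreated, 9.02, 9.02 and 9.05 at 6 h, and 8.95 and 9.38 at 12 h. They read 9.29, 8.63, 9.10 and 8.87 at 24 h and 9.57, 9.44 and 9.37 at 48 h. The 4 highest arrays, 9.88 to 10.28, were all among the 5 with high hybridization controls.

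Mgst1 fell in WT at 12 h by 0.62 (SE 0.20, adjusted p = 0.0325) and in Aag at 24 h by 0.73 (SE 0.18, adjusted p = 0.0409), where the groups overlapped. With a term for the control set these were -0.07 (adjusted p = 0.946) and -0.45 (adjusted p = 0.41). With arrays left out in turn, the WT call held only without untreated replicate 3 and the Aag call only without untreated replicates 1 or 2. At 6 h the change was -0.60 in WT (SE 0.23, adjusted p = 0.0675) and -0.67 in Aag (SE 0.19, adjusted p = 0.0822).

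Mgst3, a microsomal enzyme known for its peroxidase activity, was dim in its tested probe set 96258_at. WT arrays read 3.29, 4.22 and 3.29 untreated, 4.07 and 3.98 at 6 h, and 4.12, 4.17 and 3.99 at 12 h. They read 4.65 and 3.78 at 24 h and 5.20 and 4.50 at 48 h. Both 48 h arrays and the 24 h array at 4.65 lay above all untreated ones. Aag arrays read 3.68, 3.70, 4.12 and 4.33 untreated, 4.75, 4.06 and 4.12 at 6 h, and 3.96 and 3.85 at 12 h. They read 5.39, 5.64, 4.52 and 4.59 at 24 h and 3.73, 3.95 and 3.94 at 48 h. The highest values were those of the 2 arrays at 24 h with female-typical transcripts.

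Mgst3 rose in WT at 48 h by 1.25, or 2.38-fold (SE 0.33, adjusted p = 0.0126), a call lost without WT 48 h replicate 1 (0.90, adjusted p = 0.167). In Aag it rose at 24 h by 1.08 (SE 0.26, adjusted p = 0.038), and without the 3 female-typical arrays that change was 0.65 (adjusted p = 0.948). The Aag call was also lost without untreated replicates 2 or 3 or 24 h replicates 1 or 2 (adjusted p up to 0.152). At 48 h in Aag it stood at -0.08 (SE 0.28, adjusted p = 0.903). The Aag response minus the WT response of Mgst3 at 48 h was -1.33 (SE 0.43), which did not pass (adjusted p = 0.17).

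Counts over the 13 tested member probe sets were read against the share of all probe sets called. In WT 1 member probe set was higher and 1 lower at 6 h, where 18.3% of all probe sets were called. At 12 h 1 was higher and 2 lower against 22.3% of all, and at 24 h 2 were higher against 15.4%. At 48 h 4 were higher and 0 lower against 16.6% of all probe sets. Member counts at 6 h, 12 h and 24 h were thus near the background, and 4 of 13 at 48 h was above it but rests on few probe sets. Of the 4, 93543_f_at of Gstm1 and 97681_f_at of Gstm3 carry the family mark and can share probes, so they may not be separate. The _r_at probe sets of these genes were not called. The responses of a genotype share its untreated arrays.

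In Aag none was called at 6 h, where 0.992% of all probe sets were, or at 12 h, against 0.303%. By unadjusted p under 0.05, limma counted 1 of the 13 members at 6 h and 2 at 12 h. Over all 7261 probe sets it counted 1077 and 860 at these times. At 24 h 3 were higher and 1 lower against 1.29% of all, and at 48 h 1 was higher against 0.826%. All 4 calls at 24 h were lost without the female-typical arrays, where 0.0138% of all probe sets were called. In the late-against-early comparisons Gsta2 was the only member called. The background there was 0.537% in WT and 0.0964% in Aag at 48 h against 6 h, and over both genotypes 1.9% at 24 h and 2.16% at 48 h against 6 h. Member medians at 48 h were 0.29 in WT and 0.31 in Aag, beside 0.03 and 0.01 over all probe sets. As deposited, without scaling, the median of all probe sets was itself shifted by 0.12 to 0.15 in the WT responses.

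**Figure D4:**
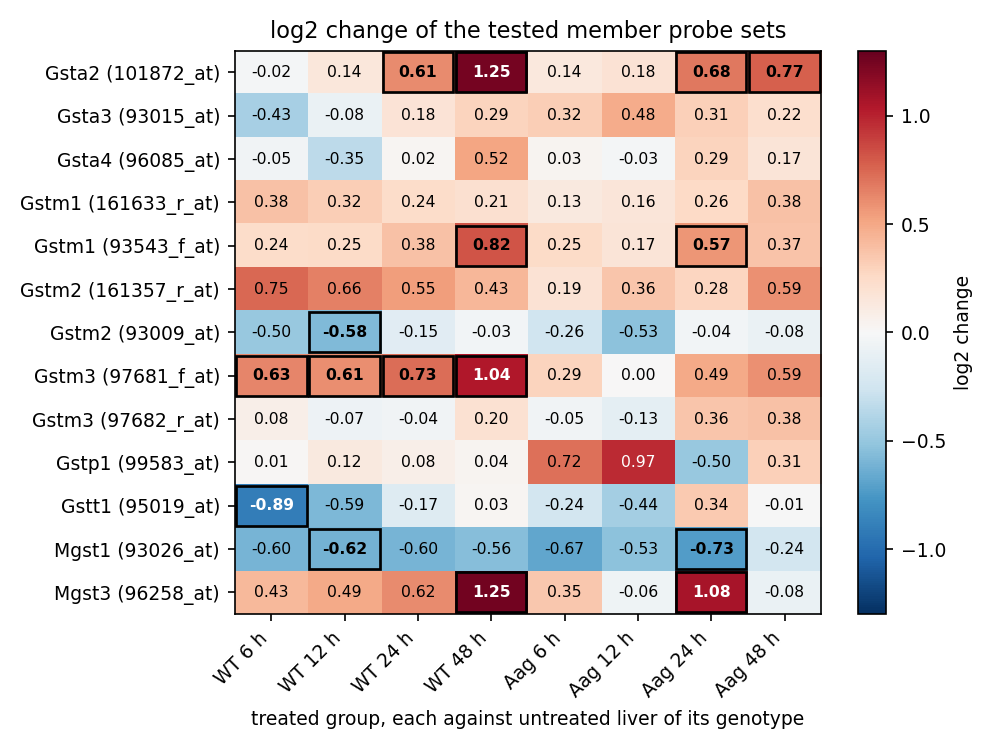
Log2 change of the 13 tested member probe sets (rows) in each treated group (columns) against untreated liver of its genotype, coloured from -1.3 (blue) to 1.3 (red); boxed cells in bold had a limma adjusted p under 0.05. Gsta2 is boxed at 24 h and 48 h in both genotypes, with 1.25 in WT and 0.77 in Aag at 48 h.

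No member probe set passed the test between the genotypes. In untreated liver the Aag minus WT changes lay from -0.55 (Gstp1) to 0.36 (Mgst3), the smallest adjusted p was 0.294, and 4.94% of all probe sets were called. Unadjusted limma p was under 0.05 for 0 of the 13, beside 1495 of all 7261 probe sets. Among treated arrays 0.11% of all probe sets were called at 6 h, 0.0138% at 12 h and 0% at 24 h and at 48 h, where by unadjusted p limma counted 82 and 269 of 7261. Of the members, 0, 0, 1 and 3 had an unadjusted p under 0.05 at the 4 times, beside 333, 87, 82 and 269 of all 7261. The genotype differences lay between -1.13 (Gstp1 at 24 h) and 0.82 (Mgst3 at 24 h). For Gsta2 at 48 h Aag minus WT was -0.40 (95% interval -0.82 to 0.01), so the data allow a sizeable difference as well as none.

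The responses were also compared directly, as the Aag response minus the WT response. This interaction called 0.165%, 0.0826%, 0.0275% and 0.248% of all probe sets at the 4 times in order, and 0 members at each time. Unadjusted limma p was under 0.05 for 1, 1, 0 and 2 members, beside 712, 609, 782 and 998 of all 7261 probe sets. For Gsta2 at 48 h it was -0.47 (SE 0.26, adjusted p = 0.435), for Gstm1 in 93543_f_at -0.45 (SE 0.20, adjusted p = 0.326) and for Gstm3 in 97681_f_at -0.45 (SE 0.26, adjusted p = 0.455). WT 6 h has 2 unlike arrays. Without replicate 1 of that group 3 member probe sets passed the test between the genotypes at 6 h, and so did 952 of all 7261 (13.1%). WT 6 h is then 1 array, assumed to vary like the other groups, and replicate 1 of Aag 6 h, whose hybridization control mean of 6.59 was near the 6.42 of the array left out, stayed in. The 3 had Aag minus WT of 0.99 for Gsta3, -0.67 for 161633_r_at of Gstm1 and -0.89 for 97682_r_at of Gstm3 (limma adjusted p = 0.0387, 0.0376 and 0.0245).

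Outside the members, 12 of 21 other listed glutathione transferases and related genes were on the array and 9 were tested. In WT 1, 2, 2 and 2 were higher and 2, 2, 1 and 1 lower at the 4 times in order. Over all probe sets 18.3%, 22.3%, 15.4% and 16.6% were called at these WT times. Gstt2, another theta-class enzyme, rose at 48 h in WT by 1.65 (SE 0.38, adjusted p = 0.00484), and over both genotypes it was 1.10 higher at 24 h than at 6 h (SE 0.26, adjusted p = 0.0276). Here and for the genes named below, the 24 h side of that comparison includes the female-typical replicates 1 and 2 of Aag 24 h. Mgst2, a microsomal relative that can make leukotriene C4, was lower at every WT time, by 2.06 at 12 h (SE 0.36, adjusted p = 0.000306) in a dim probe set, 161865_r_at. This probe set, of the relaxed kind, read 4.59 to 5.81 in WT untreated, 3.59 to 5.02 in Aag untreated and at most 3.96 in treated arrays. It passed the brightness filter only through untreated arrays. The other Mgst2 probe set, 104742_at, read 1.54 to 2.38 and was not tested. Gstm6 fell by 0.92 at 12 h in WT (SE 0.15, adjusted p = 0.000199). Ltc4s, leukotriene C4 synthase, was higher at every WT time, by 0.51 at 12 h (SE 0.13, adjusted p = 0.00594). Gstm5 was called in no comparison and was singled out after its values were seen, for its family-marked probe set 100630_f_at, which changed by -0.41 in WT (SE 0.24, adjusted p = 0.258) and 0.33 in Aag (SE 0.20, adjusted p = 0.402) at 48 h. In Aag 1 of the 9, Mgst2, was lower at 6 h (-1.40, SE 0.33, adjusted p = 0.0454), and 0 were called at later times. Over all probe sets 0.992% were called in Aag at 6 h and 0.303% to 1.29% later.

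Genes of glutathione synthesis, recycling, use and export gave 16 tested of 30 listed. In WT 1, 2, 2 and 2 were higher and 1, 3, 1 and 0 lower at the 4 times, beside 18.3%, 22.3%, 15.4% and 16.6% of all probe sets called. In Aag 0 were called, beside 0.303% to 1.29% of all. Gclc, the catalytic subunit of the rate-limiting enzyme of glutathione synthesis, was lower in WT at 12 h (-0.69, SE 0.20, adjusted p = 0.0158) and 24 h (-0.79, SE 0.22, adjusted p = 0.018). Gclm, the modifier subunit of the same enzyme, rose at all WT times, by 0.96 at 48 h (SE 0.16, adjusted p = 0.000359). Gclm was 0.71 higher in Aag than in WT untreated liver (SE 0.13, adjusted p = 0.0043), a comparison that mixes genotype with the control set in part. Abcc2, the canalicular pump that exports glutathione conjugates into bile, was 0.61 higher at 48 h than at 6 h over both genotypes (SE 0.13, adjusted p = 0.0138), and Abcc3, its basolateral relative, 0.66 higher at 24 h (SE 0.15, adjusted p = 0.0212). Hagh, which hydrolyses a glutathione thioester, fell by 1.11 at 6 h in WT (SE 0.23, adjusted p = 0.00246).

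Targets and partners of NRF2 outside glutathione metabolism gave 21 tested of 29. In WT 2, 2, 0 and 3 were higher and 4, 5, 3 and 3 lower, beside 18.3%, 22.3%, 15.4% and 16.6% of all probe sets called. In Aag 1 was higher, at 48 h, beside 0.826% of all. Ephx1, microsomal epoxide hydrolase, rose by 1.10 at 48 h in WT (SE 0.20, adjusted p = 0.000963). Akr1c13, an aldo-keto reductase, was 0.62 higher at 48 h than at 6 h over both genotypes (SE 0.10, adjusted p = 0.00145). Sqstm1, an autophagy adaptor, was lower at 24 h than at 6 h over both genotypes (-0.72, SE 0.10, adjusted p = 0.000268). Keap1, the inhibitor of NRF2, was lower in WT at all times, by 1.26 at 12 h (SE 0.18, adjusted p = 5.74e-05). It was also lower in Aag than in WT untreated liver (-0.91, SE 0.17, adjusted p = 0.0043). Its probe set was dim, at 4.03 to 4.59 in WT untreated and at most 3.67 in any other array. It passed the brightness filter only through the WT untreated arrays, all of the high control set, against which both differences were taken.

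Of 24 genes of the CAR and PXR list 16 were tested. In WT 3, 5, 2 and 3 were higher and 1, 1, 0 and 0 lower, beside 18.3%, 22.3%, 15.4% and 16.6% of all probe sets called. In Aag 1 was higher, at 24 h, beside 1.29% of all. Cyp2b10, the classical CAR target, was 1.23 higher at 24 h (SE 0.22, adjusted p = 0.00461) and 1.03 higher at 48 h (SE 0.23, adjusted p = 0.0193) than at 6 h over both genotypes. The part of the female-typical Aag 24 h arrays in the 24 h value was not tested. Nr1i3, which encodes CAR, rose by 1.18 at 12 h in WT (SE 0.19, adjusted p = 0.00021) and by 0.81 at 24 h in Aag (SE 0.17, adjusted p = 0.0221), in a probe set of the relaxed kind. Cyp3a13 rose by 1.36 at 12 h in WT (SE 0.23, adjusted p = 0.000268). Cyp1a2, a pericentral enzyme of drug oxidation, fell by 0.61 at 6 h (SE 0.16, adjusted p = 0.0116) and by 0.50 at 12 h (SE 0.14, adjusted p = 0.0167) in WT, and over both genotypes it was 0.53 higher at 24 h than at 6 h (SE 0.11, adjusted p = 0.0144). Markers of the pericentral hepatocyte, 7 of 9 on the array, had array means of 7.37 to 7.50 in WT untreated and 7.67 to 7.82 in WT 48 h liver, and of 7.39 to 7.58 in Aag untreated and 7.59 to 7.94 in Aag 48 h liver. Their part in the late rise of Gsta2 was not tested.

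The likeness of profiles was described by Pearson r over the 10 group means, which share arrays and scaling. Among members, Gsta2 and 93543_f_at of Gstm1 had r = 0.917, and 93543_f_at of Gstm1 and 97681_f_at of Gstm3, which can share probes, r = 0.887. After group means were removed these fell to 0.236 and 0.545 over the 28 arrays. Gsta2 and 97681_f_at of Gstm3 had r = 0.806 over the group means. Other member pairs ran higher than that, with 0.880 for 93009_at of Gstm2 and Gstt1 and 0.866 for 93543_f_at of Gstm1 and Mgst3. Outside the family Gsta2 was most like Pctp (0.911) and Lgals1 (0.907), Gstm1 most like Pctp (0.973) and Sycn (0.956), and Gstm3 most like Maoa (0.955) and Nab1 (0.949). Gstp1 was most like Etfbkmt (0.890) and Cyp7b1 (0.848), Gstt1 most like Rarres2 (0.971) and Hadh (0.960), and Mgst1 most like Grhpr (0.969) and Dynll1 (0.946). For Mgst3 they were Apoe (0.942) and Sycn (0.907), for Gsta3 Mdh2 (0.899) and Slc22a18 (0.898), and for Gsta4 Slc39a4 (0.851) and Nsdhl (0.810). For Gstm2, whose brighter probe set is 161357_r_at, they were Prkcz (0.988) and Hoxb8 (0.987), both measured by _r_at probe sets.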

How the data were processed

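The authors deposited a table of 28 arrays with log2 signals, 1 per probe set. The log2 scale was taken from the values, which ran from 0.689 to 13.16. The sources used here do not give the summary method or scaling. Of 12488 probe sets 66 controls were left out. Array medians of the remaining 12422 spanned 0.215, so these were quantile normalized. A probe set was tested if 2 or more arrays had it above their median, which left 7261. Testing used limma 3.58.1 in R 4.3.3 with a mean for each group, 18 residual degrees of freedom and a mean-variance trend; p-values were adjusted by Benjamini-Hochberg in each of 21 comparisons. The number of arrays limits the precision. Python 3.11.15 and matplotlib 3.10.9 drew the plots.

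Members and gene lists were chosen with earlier results of these data known. Named were all member probe sets, with array values where called, up to 4 called genes of smallest p per list, and for each member the 2 genes most like it. Gstm5 and Gclc were named besides. The 2 comparisons over both genotypes were added after the values were seen.

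Alternatives were values as deposited, no brightness filter, the brightest probe set per gene, a replicate block, a term for the control set, the lower control set alone, fits without female-typical arrays or with only the 2 groups in question, and leaving out single arrays. The pipeline was tested on simulated data with 200 of 7261 probe sets changed by 1 log2 unit.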

Additional observations from a re-analysis of the deposited data

Results flagged for a closer look

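Gstp1 in Aag untreated replicate 3 stood apart from its group. Its log2 signal was 9.11, and the other 3 arrays of that group lay at 11.19 to 11.58, so that its gap to them was 0.845 of the whole range, above the 95% critical value of Dixon's test. Of 28 tests of a group of 4 arrays for member probe sets this was the only one that stood out, and chance gives about 1 in 20. This array is among the 3 with female-typical transcripts, and the other 2, in the Aag 24 h group, had Gstp1 at 8.94 and 9.20.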

How the results depend on the processing

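Counts of member probe sets called depended on the processing, as did the share of all probe sets called, given in parentheses for the same fit. With a term for the control set, the count was 0 for WT at 6 h (1.89%), 12 h (3.11%) and 24 h (3.57%), against 2, 3 and 2 before. It was 2 for Aag at 24 h (1.01%; 4 before) and 2 for both genotypes at 24 h against 6 h (3.08%; 1 before). In the lower set alone it was 0 for Aag at 48 h (0.11%; 1 before) and 2 for both genotypes at 24 h against 6 h (3.65%). Without the female-typical arrays it was 0 in Aag at 24 h (0.0138%) and at 48 h (0%), and 0 for both genotypes at 24 h against 6 h (0.716%). In the lower set without those arrays it was 0 for Aag at 24 h (0.179%), 2 for WT at 48 h against 6 h (1.02%) and 3 for both genotypes at 48 h against 6 h (2.85%), with 1 before in each of the last 2. Fitting only the groups compared gave 0 in WT after 6 h (0.413%) and 1 after 24 h (6.91%), and 0 in Aag after 24 h (0.0413%) and 48 h (0%). It also gave 0 for WT at 48 h against 6 h (0.0138%) and for both genotypes at 24 h against 6 h (0.62%). Without the brightness filter the count was 2 for Aag at 24 h (0.499%) and 1 for untreated Aag against WT (9.36%), where 99576_at of Mgst3 was lower. As deposited it was 0 for both genotypes at 24 h against 6 h (0.468%).

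By the median, equal replicate numbers did not pair the samples. Deviations from group means had a median correlation of -0.036 over 106 pairs with the same number and 0.020 over 244 pairs with different numbers. Single pairs ran from -0.732 to 0.910 with the same number and from -0.910 to 0.759 with different numbers. Pairing within a single time was not tested. With the replicate block the count was 1 in WT after 6 h (15%) and again after 24 h (12.9%), and in Aag it was 2 after 24 h (1.12%) and 0 after 48 h (0.138%). Leaving out each array gave 0 to 6 for WT at 6 h (13.4% to 29.6%), 0 to 2 at 12 h (14.1% to 22.1%), 0 to 3 at 24 h (4.75% to 17%) and 3 to 5 at 48 h (6.68% to 16.8%). For Aag it gave 0 to 1 at 6 h (0.0964% to 3.59%), 0 to 4 at 24 h (0.151% to 4.45%) and 0 to 3 at 48 h (0% to 9.21%), and for Aag against WT at 6 h 0 to 3 (0.0413% to 13.1%). For WT at 48 h against 6 h it gave 0 to 4 (0.0826% to 11.3%), and for both genotypes 0 to 2 at 24 h (0.565% to 8.22%) and 1 to 4 at 48 h (0.702% to 5.7%). Where an array left out leaves 1 in its group, that array is assumed to vary like the other groups. Gstt1 in WT at 6 h was the only called value that turned direction, from -0.89 to 0.10 once the control set entered the fit. The causes of these shifts were not tested.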

Other observations

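The _r_at probe sets of Gstm1 and Gstm2, but not that of Gstm3, resembled other probe sets with that ending. Among the 20 probe sets most like 161633_r_at of Gstm1 over the 10 group means, 13 ended in _r_at, and for 161357_r_at of Gstm2 the number was 11. The ending is carried by 5.70% of the 7261 probe sets tested. For the _f_at probe set of Gstm1 the number was 1 of 20, and for 93009_at of Gstm2 it was 0 of 20. The third member probe set of this kind, 97682_r_at of Gstm3, had 1 of 20. This comparison was made after the values were seen.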
